A study of Mus musculus with 4 samples.

Results

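Runx1, Runx3 and Cbfb encode the remaining DNA-binding paralogs of Runx2 and the non-DNA-binding subunit that all 3 mouse Runx proteins share, and the Runx2 occupancy of these 3 genes is described here. Their peaks were all those that overlapped by at least 1 bp the gene body in mouse assembly mm9, as annotated by GENCODE M1, widened by 20 kb on each side. This rule took 125 of the 126383 deposited peaks. Day 0 contributed 21 of its 25457 peaks, day 9 contributed 62 of 60596, and day 28 contributed 42 of 40330. Peaks of the 3 days that shared at least 1 bp were merged, which gave 61 of the 67703 regions of the whole series. Regions are numbered within each gene from upstream to downstream.

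Runx2-bound DNA was recovered by ChIP-Seq from MC3T3-E1 subclone 4, a preosteoblast line derived from the calvaria of C57BL/6 mice and used at passages 28 to 31. Differentiation was induced with ascorbic acid and beta-glycerophosphate, and cells were proliferating at day 0, depositing matrix at day 9 and mineralizing at day 28. The same Runx2 antibody (M70) was used on each day, and all 3 days were compared by the authors with the same pooled input DNA of day 9 cells. The 2 libraries of each day had been pooled before peaks were called, so that each day has 1 list with no replicate error, no test between days was possible, and a single cloned line stands for the osteoblast. Read depth could not be taken from the lists, although the library summary of the study places the most raw reads at day 0, which had the fewest peaks, and the fewest at day 28. Depth cannot be told apart from the day in the counts and scores below, and intervals cover counting error only.

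Runx proteins bind DNA through the Runt domain, whose core sequence is TGTGGT, or ACCACA on the opposite strand. Cbfb joins each Runx protein in the core-binding factor and raises its affinity for DNA. Runx1 is best known for its role in definitive hematopoiesis, Runx3 for its roles in T cells, sensory neurons and cartilage, and Runx2 for its role in bone. Each Runx gene is transcribed from a distal promoter (P1) and a proximal promoter (P2), which give proteins with different amino termini.

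The P1 starts of both paralogs lay beside the same arrangement of Runx cores. In each, 2 cores ACCACA stood in the same direction with 2 bases between them, and Runx2 P1 carried the same pair. The sequences are 30 bases of mm9 on the strand of the gene, with the pair in capitals.
Runx1 P1, chr16:92826270-92826299, minus strand: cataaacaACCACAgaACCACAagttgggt
Runx3 P1, chr4:134676418-134676447, plus strand: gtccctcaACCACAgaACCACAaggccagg
Runx2 P1, chr17:44951532-44951561, minus strand: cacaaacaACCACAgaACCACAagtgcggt
All 3 shared an unbroken run of 18 bases, and Runx1 and Runx2 were identical at 27 of the 30 positions. Relative to the start, counted as position 1, the cores began at positions 21 and 29 of Runx1, at -141 and -133 of Runx3, and at 24 and 32 of Runx2. The pair therefore lay within the annotated first exon of Runx1 and Runx2 and upstream of the first exon of Runx3. Searched on both strands as ACCACANNACCACA, the pair occurred in 9 of 45962 windows from 200 bases before to 100 bases after a start of a protein-coding transcript, or 0.0196%, with 1 position counted on both strands. Those 9 starts belonged to 6 genes, of which 3 were Runx1, Runx2 and Runx3. The pair occurred in 2 of the 61 regions of Runx1, Runx3 and Cbfb, which were the regions over both P1 starts, against 0.300% of all regions. The peaks of all 3 days covered the pair whole at both P1 starts. At Runx1 a core of the pair lay 20 and 35 bp from the peak centre at days 0 and 9. At Runx1 on day 28, and at Runx3 on all 3 days, no core lay within 50 bp of the peak centre. The paired arrangement was noticed in the sequences and counted afterwards.

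The proximal promoters and the single Cbfb start differed from the P1 starts in sequence. The 150 bases before each of them are shown because a peak lay there on every day although neither TGTGGT nor TGCGGT was present.
Runx1 P2, chr16:92697574-92697723, minus strand: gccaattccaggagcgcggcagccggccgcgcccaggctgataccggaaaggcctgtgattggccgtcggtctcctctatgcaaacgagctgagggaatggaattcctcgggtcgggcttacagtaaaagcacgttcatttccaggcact
Runx3 P2, chr4:134708261-134708410, plus strand: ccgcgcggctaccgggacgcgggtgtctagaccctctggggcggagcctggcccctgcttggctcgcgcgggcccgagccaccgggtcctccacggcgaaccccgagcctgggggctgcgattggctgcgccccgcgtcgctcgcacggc
Cbfb start, chr8:107694424-107694573, plus strand: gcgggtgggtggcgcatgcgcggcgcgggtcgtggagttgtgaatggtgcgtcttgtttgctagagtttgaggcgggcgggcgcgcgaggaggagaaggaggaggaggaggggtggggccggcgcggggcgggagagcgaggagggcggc
In the window from 200 bases before to 100 bases after the start, G and C made up 69.0% of Runx1 P2, 77.7% of Runx3 P2 and 72.3% of the Cbfb start, against 48.7% of Runx1 P1 and 62.7% of Runx3 P1. The core TGTGGT was at none of these 3 windows and occurred 2 times in the window of each P1, while 14.8% of all such windows held it. The 1787 bp region over the Cbfb start held no TGTGGT at all.

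Runx2 peaks lay over 7 of the 8 annotated protein-coding starts of the 3 genes on each day. Over all 45961 starts, 38.1% were overlapped by a peak at day 0, 45.2% at day 9, 45.8% at day 28 and 36.2% on all 3 days. The score of a peak is 10 times the negative log10 of its MACS p-value, so it depends on depth. A peak was therefore placed by the percent of peaks of its own list that had a lower score. The lists of days 0, 9 and 28 differ in length, at 25457, 60596 and 40330 peaks. The same percentile thus stands for different ranks on the 3 days, and a change of percentile does not measure a change in binding. Scores of 3100 or more were treated as 1 tied class, which took in 0.829%, 4.80% and 4.04% of the lists of days 0, 9 and 28, and corresponds to percentiles 99.2, 95.2 and 96.0.

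At Runx1 P1, whose starts are at chr16:92826311 and chr16:92826256, the same peak scored 1557, 3100 and 3100 on days 0, 9 and 28. It was already above 95.9% of the peaks at day 0 and was in the tied class on both later days. At Runx1 P2 (chr16:92697573) the peak scored 2257, 3100 and 3210 on the 3 days. Its percentile was 98.2 at day 0, so that both Runx1 promoters carried some of the strongest peaks of that list. Of the internal Runx1 starts in exon 3, the start at chr16:92695895 had a peak at percentile 25.0, 81.5 and 64.4 on days 0, 9 and 28. The start at chr16:92696255 was the only one of the 8 without a peak, and the nearest peak ended 82, 45 and 42 bp away on the 3 days.

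At Runx3 P1 (chr4:134676567) the peak was in the tied class on all 3 days. The region over this start, region 6, was 2928 bp long and also covered the start of the antisense transcript Gm16225, which lies 205 bp away, so the peak cannot be given to either transcript alone. At Runx3 P2 (chr4:134708411) the peak scored 210.6 at day 0, 3100 at day 9 and 1736 at day 28. Its percentiles were 38.4, 95.2 and 88.7, so that P1 and P2 of Runx3 stood far apart at day 0 and were both in the tied class at day 9. At the Cbfb start (chr8:107694574) the peak scored 313.1, 3172 and 3178, or percentiles 55.9, 95.2 and 96.0. Cbfb and Runx3 P2 were therefore ordinary peaks of the day 0 list and were among the tied top scores at day 9.

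**Figure D1:**
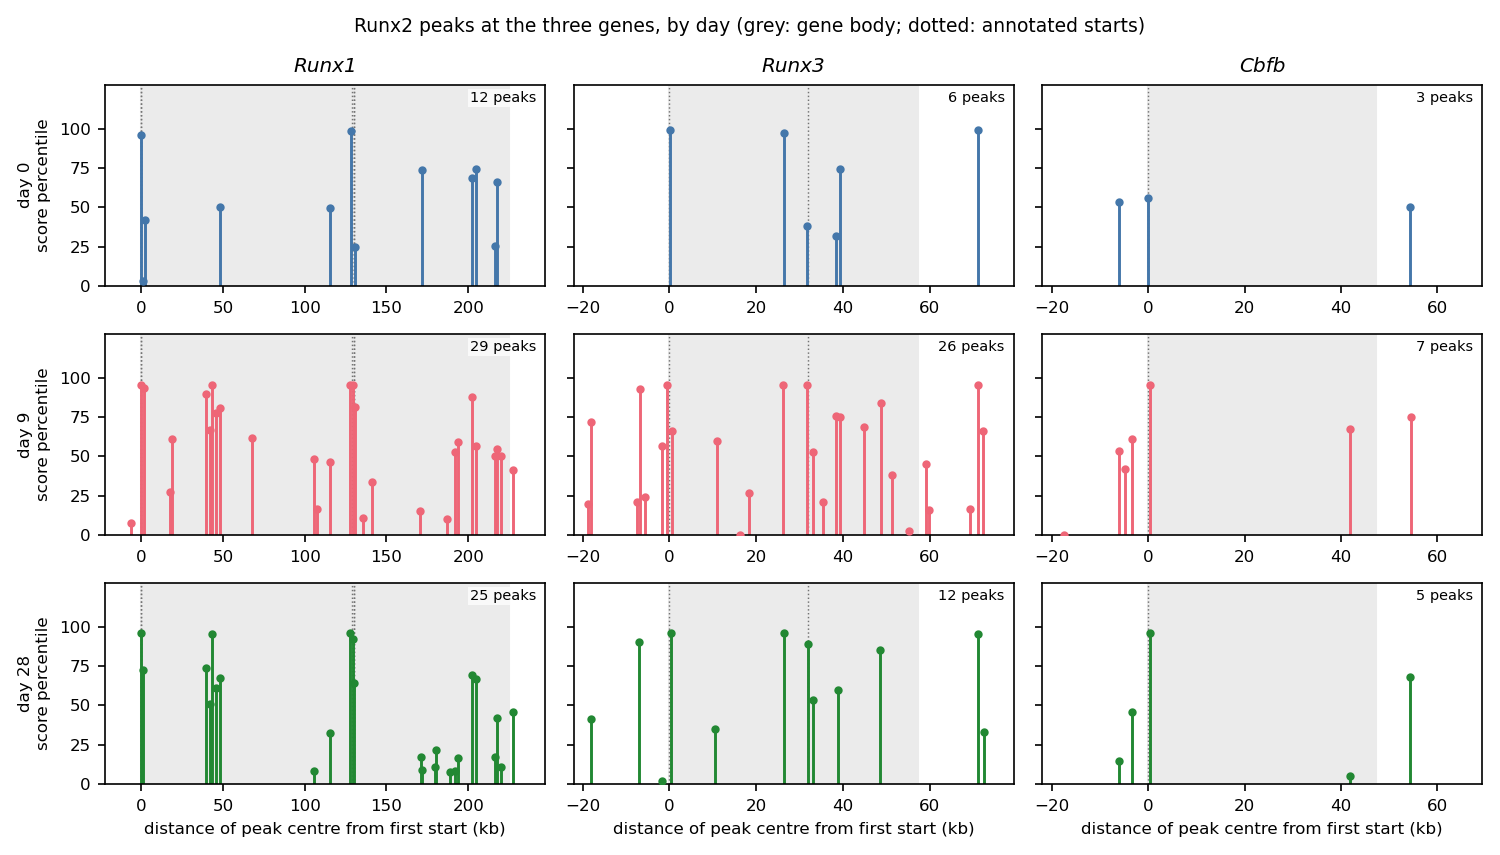
Each stem is 1 Runx2 peak, placed by the distance of its centre from the first annotated start in kb and raised to its score percentile within the list of that day, for Runx1, Runx3 and Cbfb (columns) at days 0, 9 and 28 (rows). Grey marks the gene body and dotted lines the annotated starts. Peaks at the starts were present on each day, and Runx1 showed a further group of peaks near 40 kb at days 9 and 28 of which 1 was present at day 0.

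Runx1 held 12, 29 and 25 peaks on days 0, 9 and 28, in 31 regions. Few genes had as many, since 99.6%, 99.7% and 99.9% of the 22271 protein-coding genes had fewer on the 3 days. The widened gene was also long, at 265 kb, and per 100 kb the day 9 peaks numbered 11.0, a density above that of 85.0% of genes. Runx3 held 6, 26 and 12 peaks in 23 regions. In its window of 97.3 kb this made 26.7 peaks per 100 kb at day 9, above 99.1% of genes, against a median of 3.49 over all genes. Cbfb held 3, 7 and 5 peaks in 7 regions, more than 75.7%, 82.2% and 82.6% of genes had, and its 8.02 peaks per 100 kb at day 9 lay above 76.2% of genes. As background, 65.0% of all genes had at least 1 peak at day 0, 77.0% at day 9 and 71.2% at day 28.

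**Figure D2:**
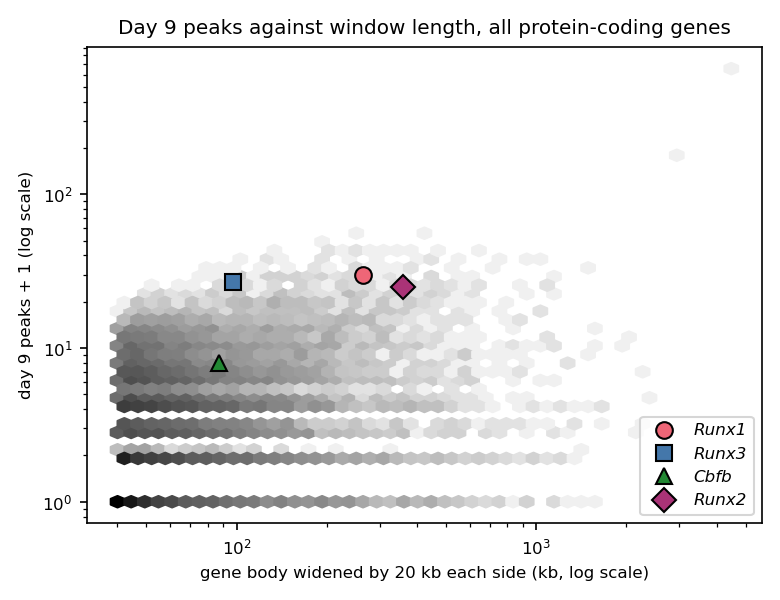
Number of day 9 peaks plus 1 against the length of the gene body widened by 20 kb on each side, in kb, both on log scales, for all 22271 protein-coding genes (grey, darker where genes are more numerous) with Runx1, Runx3, Cbfb and Runx2 marked. Runx3 held 26 peaks in a window of 97.3 kb and lay at the upper edge of genes of its length, whereas Cbfb, with 7 peaks in 87.3 kb, lay within the cloud.

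Day 9 had the most peaks at each of the 3 genes and day 0 the fewest, which is also the order of the full lists. The ratio of day 9 to day 0 was 2.42 at Runx1, 2.33 at Cbfb and 4.33 at Runx3, against 2.38 over all peaks and 1.85 at Runx2. The ratio of day 28 to day 9 was 0.862 at Runx1, 0.714 at Cbfb and 0.462 at Runx3, against 0.666 over all peaks. In the deposited lists, the number at Runx3 thus rose and fell by more than the length of the lists. The number at Runx1 fell by less from day 9 to day 28. No error can be put on these ratios, and they depended on the p-value required of each peak. At days 0, 9 and 28, Runx3 held 5, 16 and 11 peaks at 1e-20, 4, 10 and 6 at 1e-50, and 3, 6 and 6 at 1e-100. At the same settings Runx1 held 9, 22 and 14, then 4, 10 and 10, then 2, 9 and 4. With each list limited to as many top-scoring peaks as the day 0 list, the counts at days 0, 9 and 28 became 12, 14 and 14 at Runx1, 6, 13 and 9 at Runx3, and 3, 4 and 3 at Cbfb. At Runx1 and Cbfb the days then lay close together, and at Runx3 day 9 still had the most.

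None of the 61 regions had a peak at day 0 alone, at days 0 and 9 alone, or at days 0 and 28 alone, against 5.60%, 1.69% and 2.06% of all regions. A count of 0 in 61 regions allows a share of up to 4.92% by a floor of 3 counts. By the exact binomial 95% interval it allows up to 5.87%. The 5.60% of day 0 alone lay between these limits, and 1.69% and 2.06% lay below both. A shortfall of any single class was therefore not detectable at this number. Added up, the shares of the 3 classes lie above both limits. Neighbouring regions of 1 gene are not independent and the count of 0 depended on the settings, as given below, so no shortfall is read from this sum. Regions with a peak on all 3 days numbered 19, or 31.1% against 27.4% of all regions. A further 18 had peaks at days 9 and 28 (29.5% against 21.1%), 21 at day 9 alone (34.4% against 34.5%) and 3 at day 28 alone (4.92% against 7.59%). Over the whole series, 18584 regions had a peak on all 3 days, beside 3792 at day 0 alone, 1146 at days 0 and 9 and 1392 at days 0 and 28. Most regions of the series with a day 0 peak thus had a peak at both later days. At these genes every region with a peak at day 0 in the deposited lists did so. This depended on the settings, since 3 regions with a day 0 peak lacked one on a later day at 1e-20 and at 1e-50, 6 did with lists of equal length, and up to 14 did under stricter definitions of overlap. Runx2 itself, by the same rule, had 29 regions, of which 3 had a peak at day 0 alone, 1 at days 0 and 9 and 1 at days 0 and 28. The absence of these 3 classes was not particular to Runx1, Runx3 and Cbfb. Among the ETO family corepressors described below, Cbfa2t3 had none in them either, whereas Runx1t1 and Cbfa2t2 had some.

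**Figure D3:**
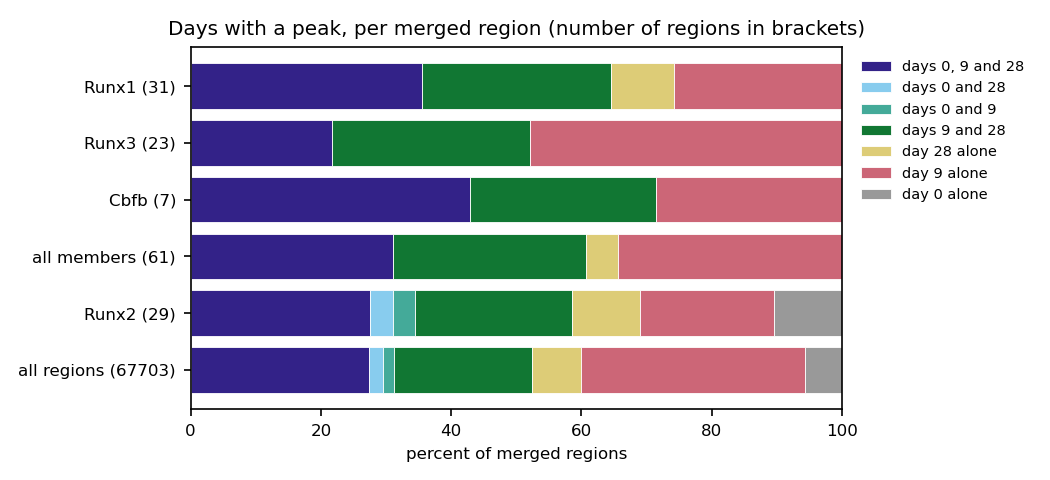
Percent of merged regions by the days on which they held a peak, for Runx1, Runx3 and Cbfb, for the 3 genes together, for Runx2 and for all 67703 regions, with the number of regions in brackets. Day 9 alone made up 47.8% of Runx3 regions and 25.8% of Runx1 regions, and no region of the 3 genes fell in the classes of day 0 alone, days 0 and 9 or days 0 and 28.

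Most of the regions lay inside the genes and away from their starts, as did most of the sequence that the rule took. The gene body made up 225 of the 265 kb window at Runx1, 57.3 of 97.3 kb at Runx3 and 47.3 of 87.3 kb at Cbfb. No share over all regions stands beside the counts of locations, so they are not read as a preference. By the centre of the region, 38 of the 61 regions lay in introns, 5 in exons, 11 upstream and 7 downstream of the annotated body. At Runx1, 26 of 31 regions were intronic, and 13 of them lay in intron 2, which separates P1 from P2. At Runx3, 11 of 23 were intronic, 5 of them in intron 1 between its own P1 and P2. At Cbfb only region 6 was intronic, and 4 of the 7 regions lay upstream.

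Within Runx1 intron 2, regions 6 to 10 formed a group 39.6 to 47.9 kb downstream of P1. Region 8 (chr16:92782385-92783377) had no peak at day 0 and scored 3100 at day 9 and 2878 at day 28, percentiles 95.2 and 95.3. Region 6 scored 1809 and 822.9 on the later days, region 7 scored 482.8 and 337.6, and region 9 scored 832.3 and 497.5, and none of them had a day 0 peak. Region 10 alone had a peak on all 3 days, at percentiles 50.4, 80.6 and 67.3. The group was therefore called mainly on the later days, with a single region already called at day 0. A region with no peak in a list did not pass the threshold of 1e-10 there, which does not show that Runx2 was absent.

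Of the Runx1 regions away from the starts with a peak on all 3 days, regions 14, 19, 27 and 29 stood at their highest percentile at day 0, and regions 3, 10, 26 and 28 at day 9. Region 19 (chr16:92653672-92656093, intron 5) was at percentile 73.8 at day 0, 15.0 at day 9 and 17.4 at day 28. Its peak centres at days 0 and 9 lay 1024 bp apart and day 28 had 2 peaks there, so these values do not follow 1 peak. Region 27 was at 74.2, 56.4 and 67.0, region 29 at 66.2, 54.5 and 42.0, and region 28 between them at 25.3, 50.5 and 16.9. The 3 regions with a peak at day 28 alone, regions 20, 21 and 23, lay 180, 180 and 189 kb from P1 and scored 122.4, 154.5 and 114.7. These were low scores, and with a p-value of 1e-20 required of each peak none of the 3 remained. Region 26 (intron 6) scored 440.2, 1588 and 685.6 and was the strongest Runx1 region beyond exon 3 at day 9.

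Outside its promoters, Runx3 held 2 regions with scores in the tied class. Region 10 (chr4:134702103-134703768), in intron 1 and 26.4 kb downstream of P1, scored 1897 at day 0 and 3100 at days 9 and 28. Region 22 (chr4:134747014-134748210) lay 71.0 kb downstream of P1 and beyond the 3′ end, and scored 3100, 3100 and 2898. At day 0 it was in the tied class of 211 peaks together with the P1 peak. These were the only peaks of the 3 genes in that class on that day. Region 3 (chr4:134668911-134670085), 7.07 kb upstream of P1, had no peak at day 0 and scored 2369 and 1954 on the later days. Region 16 (intron 4) likewise had none at day 0, and scored 1210 and 1405. The 11 Runx3 regions with a peak at day 9 alone reached scores between 100.5 and 541.7, and the highest, region 15 in intron 4, was at percentile 68.9.

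At Cbfb, the upstream region 2 (chr8:107687959-107689065), 6.06 kb from the start, had a peak on all 3 days at percentiles 53.2, 53.2 and 14.8. Region 7 scored 273.7, 718.4 and 647.5 and lay over the start of the neighbouring gene D230025D16Rik on all 3 days, so it was a Cbfb region only by the 20 kb flank. Without any flank, Cbfb held 1, 2 and 2 peaks on the 3 days. In all, peaks in the tied class numbered 2 of 21 at day 0, 9 of 62 at day 9 and 5 of 42 at day 28 over the 3 genes. This class took in 0.829%, 4.80% and 4.04% of the full lists of those days. Of the tied peaks at day 9, 2 lay in the single Runx1 region 15.

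The core TGTGGT lay within 50 bp of a peak centre in 26 of the 61 regions, or 42.6% (exact binomial 95% interval 30.0% to 55.9%), against 31.0% of all regions, which lies within that interval. The share was 51.6% at Runx1 (16 of 31 regions, 33.1% to 69.8%), 30.4% at Runx3 (7 of 23, 13.2% to 52.9%) and 42.9% at Cbfb (3 of 7, 9.90% to 81.6%). The interval of Runx1 lay just above the 31.0% of all regions, those of Runx3 and Cbfb included it, and the intervals of the 3 genes overlapped. Regions with peaks on several days had several centres searched, and neighbouring regions of 1 gene are not independent. Over the whole length of a region, 67.2% of the regions of the 3 genes held the core against 64.0% of all regions. Among the 3 regions of day 28 alone, none held TGTGGT anywhere.

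**Figure D4:**
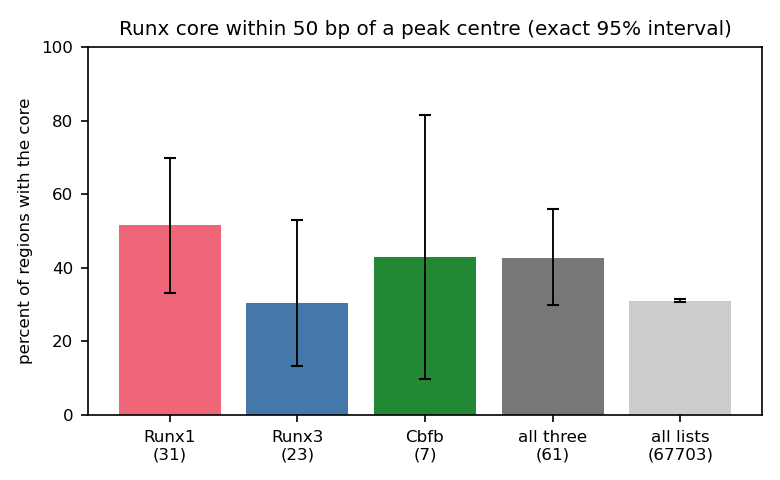
Percent of merged regions with the Runx core TGTGGT, on either strand, within 50 bp of a peak centre, for Runx1, Runx3 and Cbfb, the 3 genes together and the regions of all lists, with the number of regions in brackets. Bars start at 0 and whiskers are exact binomial 95% intervals, which for Runx1 ran from 33.1% to 69.8% and lay above the 31.0% of all regions, whereas those of Runx3 and Cbfb included it.

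A selection of regions with high day 9 scores away from the starts is shown around the core closest to the day 9 peak centre, on the strand of the gene and with the core in capitals. Runx1 region 6, which held no TGTGGT within 50 bp of a peak centre, and the site-rich Runx1 region 3 are left out. For Runx3 region 22, which held no TGTGGT in 1197 bp, the related sequence TGCGGT is marked instead, 12 bp from the centre and read from the opposite strand.
Runx1 region 8, chr16:92782857-92782956, minus strand: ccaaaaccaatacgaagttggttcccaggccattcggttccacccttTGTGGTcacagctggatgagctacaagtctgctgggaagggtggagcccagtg
Runx1 region 10, chr16:92778318-92778417, minus strand: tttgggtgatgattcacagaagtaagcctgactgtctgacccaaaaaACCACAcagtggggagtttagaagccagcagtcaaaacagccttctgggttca
Runx1 region 26, chr16:92624196-92624295, minus strand: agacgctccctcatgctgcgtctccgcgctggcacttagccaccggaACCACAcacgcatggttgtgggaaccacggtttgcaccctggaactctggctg
Runx3 region 3, chr4:134669717-134669816, plus strand: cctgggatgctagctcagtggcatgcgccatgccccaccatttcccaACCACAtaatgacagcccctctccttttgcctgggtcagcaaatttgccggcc
Runx3 region 10, chr4:134702860-134702959, plus strand: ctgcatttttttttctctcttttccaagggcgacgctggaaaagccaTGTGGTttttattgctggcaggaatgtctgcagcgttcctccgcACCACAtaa
Runx3 region 16, chr4:134725175-134725274, plus strand: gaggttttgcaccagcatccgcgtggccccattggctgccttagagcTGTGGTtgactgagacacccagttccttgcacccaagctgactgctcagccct
Runx3 region 22, chr4:134747550-134747649, plus strand: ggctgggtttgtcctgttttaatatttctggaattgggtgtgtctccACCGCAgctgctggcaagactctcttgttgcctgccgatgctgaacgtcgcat
The core was 63 bp from the day 9 peak centre in Runx1 region 8, 37 bp in Runx1 region 10, 94 bp in Runx1 region 26, 34 bp in Runx3 region 3, 58 bp in Runx3 region 10 and 11 bp in Runx3 region 16. The centre of a peak is the midpoint of its ends, since summits were not used here.

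A few regions held the core many times over. Cbfb region 6 (chr8:107735911-107736829, intron 5) contained 24 TGTGGT sites, all on the plus strand and all 32 bp apart, over 742 bp. Its day 9 and day 28 scores were 498.7 and 109.9, percentiles 67.2 and 5.26, and it had no peak at day 0. Of its repeat, 4 units are shown with the core in capitals.
Cbfb region 6, chr8:107736250-107736377, plus strand: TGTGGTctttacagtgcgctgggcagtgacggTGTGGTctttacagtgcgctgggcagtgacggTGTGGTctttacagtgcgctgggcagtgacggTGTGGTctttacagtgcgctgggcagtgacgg
The reads were 36 bases long, and 21.4% of the 36-base stretches of this region occurred once within it. The part this played in the peak was not tested. Runx1 region 3 (chr16:92823363-92825769), 1.75 kb downstream of P1, contained 21 sites on 1 strand. Each of its 36-base stretches occurred once in the region, so it held no exact repeat of that length. The commonest spacing of its sites was 21 bp, at 3 of 20 spacings, and a shorter or diverged repeat was not tested for. The highest percentiles of the region were 41.9, 93.6 and 72.5 on days 0, 9 and 28, but these do not follow 1 peak. The wide day 9 peak joined 2 separate peaks of day 0, at percentiles 41.9 and 3.15. The stronger of these held 18 sites and did not overlap the day 28 peak, which held 3. Regions with 20 or more sites made up 0.427% of all regions.

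These site-rich regions set the density of the core. The 61 regions held 2.41 TGTGGT sites per kb against 1.77 over all regions. Without regions of 20 or more sites, the values were 1.72 over the other 59 regions and 1.62 over all others. The widened genes outside their regions held 0.840 sites per kb at Runx1, 0.748 at Runx3 and 0.776 at Cbfb. The regions without the site-rich ones held 1.92 per kb at Runx1 (53 sites) and 1.65 at Runx3 (35 sites). At Cbfb they held 0.960 per kb, which rests on 5 sites in 5.21 kb, too few to read a difference from 0.776.

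By the numbers of regions in the 7 combinations of days, compared as log2 of the number plus 1, the genes most like Runx3 were Zfp516 (distance 0.291), Nhej1 (0.326) and Rap1gap (0.611). Those most like Runx1 were Eif4e3 (0.821), Nfic (0.861) and Trak1 (0.894). Each of these genes, chosen by these same numbers, also had no region at day 0 alone, at days 0 and 9 or at days 0 and 28. For Cbfb, 26 genes had exactly its numbers, so its pattern was a common one.

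The corepressors of the ETO family, which include the fusion partner of Runx1 in leukemia, all had Runx2 peaks on each day, beside shares over all genes of 65.0%, 77.0% and 71.2% on days 0, 9 and 28, and with 3 genes no difference from those shares can be read. Their peaks at days 0, 9 and 28 numbered 3, 5 and 4 at Runx1t1, 6, 10 and 4 at Cbfa2t2, and 2, 12 and 13 at Cbfa2t3. Among the 3, the number was lower at day 28 than at day 9 at Runx1t1 and Cbfa2t2 and 1 higher at Cbfa2t3. Of 16 genes for transcription factors, cofactors and kinases that act with Runx proteins, 13 had a peak at day 0. At days 9 and 28 the number was 15, and those same shares over all genes stand beside these counts. Their medians were 1.5, 5.5 and 4 peaks against 1, 2 and 2 over all genes, without regard to window length. Per 100 kb at day 9, the 16 ran from 0 at Tal1 to 23.8 at Prmt1. Ep300 (3.75) and Fli1 (3.77) stood in the middle of that order, against a median of 3.49 over all genes. Tal1, a hematopoietic factor, had none on any day, and Gata1 and Suv39h1 had none at day 0. Spi1, the master regulator of myeloid cells, had 3, 12 and 7 peaks, and Ets1, which binds DNA together with Runx1, had 8, 7 and 10.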

How the data were processed

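Runx2 ChIP-Seq peak lists of MC3T3-E1 cells at days 0, 9 and 28 were analysed. According to the labels and methods, the authors base-called reads with CASAVA (version 1.6), aligned 36-base reads against mm9 by Bowtie (version 0.12.8), combined the 2 libraries of a day, called peaks against pooled day 9 input with MACS (version 1.4.1) and retained peaks under 1e-10. The deposited score, made by the authors, equals -log10 of the MACS p multiplied by 10. The lists hold no read counts, so depth could not be taken from them. By the library summary of the study, day 0 had the most raw reads and day 28 the fewest. Signal tracks and input libraries were not used here.

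Genes and starts were taken from GENCODE M1, annotated on the same assembly (NCBIM37), and sequences were read from that assembly. Overlapping records of 1 symbol were united. Older symbols of Spi1, Kat6a and Kmt2a were found through RefSeq synonyms. A region belonged to a gene if one of its peaks overlapped the widened gene by 1 bp. TGTGGT was searched on both strands. No test between days was made. Named regions were those over a start, with the highest score of a list, with a peak on 1 day alone or with the core at a centre; named genes were the members, Runx2, the ETO family, 16 partners, neighbours and up to 3 most alike genes. The members and lists were chosen with earlier results of these data known. Alternatives covered the p-value, list length, flank, overlap and motif. The joining of neighbouring peaks, the paired core and the count of 20 sites were chosen after seeing the data. Functions were tested on simulated data. Python 3.11.15, NumPy 2.4.6, SciPy 1.17.1, Matplotlib 3.10.9 and pysam 0.24.0 were used.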

Additional observations from a re-analysis of the deposited data

How the results depend on the processing

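Of 216 values recomputed, 144 stayed within 1.5 times the reported count, or within the interval of the reported share, and 72 did not. With 1e-20 required, regions of day 9 alone fell to 12, regions of day 28 alone to 0, Runx1 day 28 peaks to 14, Runx3 day 9 peaks to 16 and Cbfb day 28 peaks to 3. With 1e-50, peaks at days 0, 9 and 28 numbered 8, 22 and 18 over the 3 genes, 4, 10 and 10 at Runx1, 0, 2 and 2 at Cbfb, and 10 and 6 at Runx3 on days 9 and 28, in 22 regions (5 on all days, 11 at days 9 and 28, 3 at day 9 alone, 0 at day 28 alone), and 4 of 8 starts had a day 0 peak. With 1e-100, they numbered 5, 16 and 11 over the 3 genes, 2, 9 and 4 at Runx1, 3, 6 and 6 at Runx3 and 0, 1 and 1 at Cbfb, in 15 regions (5, 5, 5 and 0). With lists of equal length, 31 and 26 peaks remained at days 9 and 28, of which Runx1 held 14 and 14, Runx3 13 at day 9 and Cbfb 4 and 3, in 36 regions with 8 at days 9 and 28 and 7 at day 9 alone. Without a flank, Runx3 held 15 and 7 peaks at days 9 and 28, Cbfb 1, 2 and 2, and 13 regions had day 9 alone. With 50 kb, Cbfb held 5 and 11 at days 0 and 9, Runx3 21 at day 28, and 28 regions had days 9 and 28. With centres within 250 bp, 12 regions had all days and 8 day 28 alone, and with the 100 bp around centres 7 had all days, 32 day 9 alone and 16 day 28 alone. Regions with a peak at day 0 but not on both later days, 0 as reported, numbered 3 at 1e-20, 3 at 1e-50, 6 with lists of equal length, 1 with 50 kb, 1 with overlap of 50% of the shorter peak, 9 with centres within 250 bp and 14 with the 100 bp around centres. Over whole peaks 67.2% of regions held TGTGGT. Day 9 had the most peaks over the 3 genes under each p-value and list-length setting. The pooled libraries cannot be left out in turn. No paired analysis was possible because each day has 1 pooled list.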
